A study of Homo sapiens with 11 samples.

Results

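The genes described here are 37 genes of cholesterol and fatty acid synthesis in 2 breast cancer cell lines. They comprise 18 enzymes of the sterol pathway, 5 regulators and sterol carriers, and 14 genes of fatty acid and lipid synthesis. The members were chosen by symbol, with no measured value in the rule, and all 37 of 37 were found among the 59087 genes of the count tables. Of these, 35 had an average of at least 1 on the log2 CPM scale (CPM, counts scaled to the size of the library), a level reached by 13646 genes in all, and the other members, THRSP and LPIN2, were below it.

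The study asked what silencing or inhibiting the kinase NLK does in breast cancer cells that resist endocrine therapy. BT483 and T47D-TamR are estrogen receptor positive breast cancer lines, and T47D-TamR was derived from T47D by long passage in tamoxifen, an estrogen receptor modulator. In BT483 there were 4 libraries: a non-targeting control siRNA, NLK siRNA type 1, NLK siRNA type 2, and the control siRNA with 0.5 µM tamoxifen. In T47D-TamR there were the same 4 conditions and 3 more without siRNA: DMSO vehicle, 0.5 µM VX-702 (a p38 MAP kinase inhibitor), and tamoxifen at 0.5 µM with the vehicle. All cells were first deprived of estrogen for 48 h in phenol red-free medium with stripped serum, and siRNAs were given at 10 nM for 72 h. The length of the drug treatment without siRNA was not stated. Before that, T47D-TamR had been propagated in stripped serum with tamoxifen, and BT483 in medium with whole serum. The T47D-TamR controls therefore share a history of tamoxifen, and the line, its maintenance medium and its drug history cannot be told apart. Each of the 11 groups was 1 library, so the tests took lines and arms as replicates. Nothing in the labels says that libraries came from separate cultures, and a p-value here reflects only how far these particular libraries varied.

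Cholesterol is built from acetyl-CoA through mevalonate, farnesyl diphosphate, squalene and lanosterol, and fatty acids from acetyl-CoA through malonyl-CoA. Both pathways are driven by the transcription factors SREBP-1 and SREBP-2, encoded by SREBF1 and SREBF2. When sterols in the endoplasmic reticulum are low, the escort protein SCAP carries SREBP to the Golgi, where it is cut and released to the nucleus. When sterols are high, INSIG proteins hold the complex back. Tamoxifen also binds a microsomal site formed by the sterol enzymes EBP and DHCR7, apart from the estrogen receptor.

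Total counts ran from 14637083 to 26915863 per library. The shallow ones were BT483 with control siRNA (16859630) and BT483 with siRNA type 1 (14637083), and the other 9 held 23716207 to 26915863. The targeted gene, NLK, stood at 30.0 CPM in the BT483 control and at 8.56 and 5.50 CPM with siRNA types 1 and 2. In T47D-TamR the control held 29.6 CPM and the siRNA libraries 10.2 and 12 CPM. The fit over both lines gave a log2 fold change of -1.75 (SE 0.21, adjusted p = 0.0308). All 8 luminal markers were detected in BT483, while in T47D-TamR TFF1 was at only 0 to 0.16 CPM. The summed level of the 8 was 12840 to 14556 CPM in BT483 and 4919 to 7374 CPM in T47D-TamR. Sums of 8 fibroblast markers were 12.1 to 14.4 CPM and 53.8 to 77.3 CPM, and those of 6 adipocyte markers 4.5 to 7.51 CPM and 3.10 to 5.20 CPM, with FABP4, LEP and CIDEC at or under the level of 3 counts in every library. Of 5 leukocyte markers PTPRC, CD3E and LYZ were at that level, and the sums were 0.0566 to 0.227 CPM and 1.15 to 2.91 CPM. The mitochondrial share ran from 9.18% to 11.5% in BT483 libraries, and from 6.47% to 8.61% in those of T47D-TamR. Marker sums and mitochondrial share thus moved with the line, and their part in the differences between lines was not tested.

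SCD and FASN, both fatty acid enzymes, were the most abundant members in both lines. Levels were compared between genes as TPM, a measure of transcript abundance that corrects for length. In T47D-TamR the desaturase SCD led, with a median of 873 TPM over 7 libraries (lowest 780, highest 1009), above every library's value for FASN, the fatty acid synthase (median 478 TPM, lowest 320, highest 563). ACLY, which makes cytosolic acetyl-CoA from citrate, followed at a median of 303 TPM (lowest 248, highest 358), and its range overlapped that of FASN. The elongase ELOVL5 (187 TPM), the mevalonate pathway kinase PMVK (170), the squalene epoxidase SQLE (167), the squalene synthase FDFT1 (166), the last-step reductase DHCR7 (150) and the sterol reductase TM7SF2 (145) came next, with ranges that overlapped each other. At the other end were the sterol carrier STARD5 at a median of 3.18 TPM, the malic enzyme ME1 at 0.474 TPM and LPIN2, which was at 0.

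In BT483 FASN led, at 468, 516, 472 and 339 TPM with control siRNA, siRNA type 1, siRNA type 2 and tamoxifen. SCD followed at 298, 298, 291 and 229 TPM in the same order, so every FASN value lay above every SCD value, the reverse of the order in T47D-TamR. PMVK (median 247 TPM), ACLY (223), ELOVL5 (138), SQLE (128) and the acyl-CoA synthetase ACSL3 (88.5) came next. The lowest members were STARD4, a carrier that moves cholesterol between membranes (median 1.76 TPM), and THRSP, a lipogenesis regulator (2.03 TPM).

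In BT483 the highest library was at most 1.5 times the lowest for 30 of the 37 members, and the exceptions with the widest spread were STARD4 (3.82 times) and FADS2 (3.28 times). In T47D-TamR, with 7 libraries, the highest library was at most 1.5 times the lowest for 22 of 36 members with counts. The widest spread there was that of STARD5 (7.77 times), at 24.8 CPM in the DMSO library and 3.19 to 9.96 CPM in the other 6, followed by ME1 (3.48 times) at levels near 1 CPM. The plot of levels in every library shows this separation by line.

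**Figure D1:**
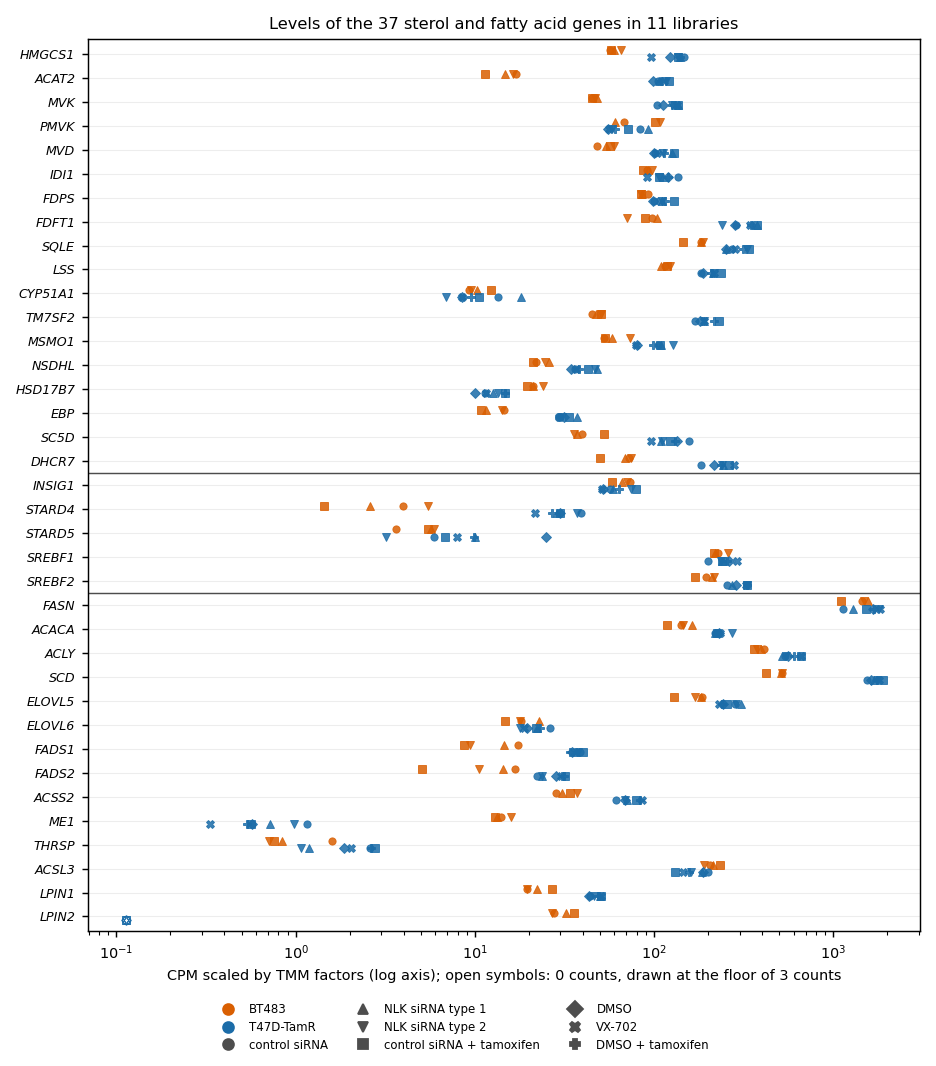
Level of each of the 37 members in each of the 11 libraries, as CPM on a log axis, with BT483 in orange and T47D-TamR in blue, the marker giving the treatment, and lines dividing sterol enzymes, regulators and carriers, and fatty acid genes. The cell lines lie apart for most members, LPIN2 is at 0 in all 7 T47D-TamR libraries (open symbols at the level of 3 counts), and FASN, SREBF1 and INSIG1 overlap between lines.

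The sequence just before the transcription start of 33 of the 37 members was found in RefSeq (GRCh38.p14); ACAT2, SQLE, FDFT1 and FASN had no entry. In windows from 250 bases before to 50 bases after the start, read on both strands, the SREBP site TCACNCCA was present in 4 of 33 members (MVK, MSMO1, SREBF2 and ME1), 12.1%, against 4.80% of 27305 genes. The CCAAT box, bound by NF-Y, was present in 25 of 33 (75.8%) against 39.7% of genes, the GC box GGGCGG in 30 of 33 (90.9%) against 48.3%, and the E-box CACGTG in 5 of 33 (15.2%) against 8.77%. A CCAAT box can share its first bases with the end of an SREBP site, and the other motifs do not contain one another. The 250 bases before the start are printed for MVK, MSMO1 and SREBF2, which hold the SREBP site and were among the members higher in all 4 knockdown libraries, and for STARD4, DHCR7, FADS1 and FADS2, whose levels were lower with tamoxifen in BT483. Each is written 5′ to 3′ on the gene's strand, and capitals mark the SREBP site and the CCAAT box, the latter as ATTGG where it lies on the other strand. The windows are chr12:109573544-109573793 (MVK, plus strand), chr4:165327419-165327668 (MSMO1, plus), chr22:41832855-41833104 (SREBF2, plus), chr5:111512536-111512785 (STARD4, minus), chr11:71448394-71448643 (DHCR7, minus), chr11:61817004-61817253 (FADS1, minus) and chr11:61816154-61816403 (FADS2, plus).
MVK: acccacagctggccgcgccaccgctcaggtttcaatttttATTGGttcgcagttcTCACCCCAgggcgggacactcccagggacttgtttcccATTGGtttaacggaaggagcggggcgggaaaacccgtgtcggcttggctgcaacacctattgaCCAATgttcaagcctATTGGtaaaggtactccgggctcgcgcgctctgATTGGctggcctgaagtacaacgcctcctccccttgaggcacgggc
MSMO1: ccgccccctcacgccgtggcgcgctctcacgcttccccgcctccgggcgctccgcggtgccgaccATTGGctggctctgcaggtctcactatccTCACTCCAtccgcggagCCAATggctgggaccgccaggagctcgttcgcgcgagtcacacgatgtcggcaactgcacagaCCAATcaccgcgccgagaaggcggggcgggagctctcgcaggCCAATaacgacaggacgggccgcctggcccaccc
SREBF2: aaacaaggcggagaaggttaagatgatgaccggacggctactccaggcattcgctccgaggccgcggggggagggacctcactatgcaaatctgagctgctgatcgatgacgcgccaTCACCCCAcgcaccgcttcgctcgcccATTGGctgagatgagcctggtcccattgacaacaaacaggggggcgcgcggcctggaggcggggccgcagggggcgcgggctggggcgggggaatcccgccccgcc
STARD4: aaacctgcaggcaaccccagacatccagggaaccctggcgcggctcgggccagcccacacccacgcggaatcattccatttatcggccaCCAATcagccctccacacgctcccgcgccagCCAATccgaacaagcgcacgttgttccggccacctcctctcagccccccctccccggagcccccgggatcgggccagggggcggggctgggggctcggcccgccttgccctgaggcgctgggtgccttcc
DHCR7: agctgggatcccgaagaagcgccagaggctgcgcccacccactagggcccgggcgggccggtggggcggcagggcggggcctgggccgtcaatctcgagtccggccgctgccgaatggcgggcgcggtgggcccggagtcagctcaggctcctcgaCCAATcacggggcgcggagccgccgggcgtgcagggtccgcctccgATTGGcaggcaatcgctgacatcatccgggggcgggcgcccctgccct
FADS1: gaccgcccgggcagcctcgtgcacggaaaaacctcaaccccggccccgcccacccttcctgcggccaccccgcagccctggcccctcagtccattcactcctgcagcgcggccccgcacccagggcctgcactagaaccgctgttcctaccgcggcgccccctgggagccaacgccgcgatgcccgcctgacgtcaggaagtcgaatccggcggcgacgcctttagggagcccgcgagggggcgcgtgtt
FADS2: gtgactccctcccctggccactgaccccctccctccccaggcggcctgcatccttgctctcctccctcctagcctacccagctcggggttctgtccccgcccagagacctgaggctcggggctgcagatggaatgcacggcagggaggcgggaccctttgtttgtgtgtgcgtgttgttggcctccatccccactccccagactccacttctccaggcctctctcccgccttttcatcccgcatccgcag

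MVK held 1 SREBP site, which began 195 bases before the start, and 5 CCAAT boxes. MSMO1 held its site 156 bases before the start with 4 CCAAT boxes, and SREBF2 at 133 bases with 1. STARD4 and DHCR7 held 2 CCAAT boxes each and no SREBP site of this spelling. The bases printed for FADS1 and FADS2 held neither motif. FADS2 was still counted above among the members with a CCAAT box, because the counted windows also took in bases that are not printed. A match describes the letters in this window and not a bound site.

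The lines differed in most of these genes, with sterol enzymes lower in BT483 than in T47D-TamR. Over the 8 siRNA libraries, 29 of 37 members passed the test, 26 of them lower and 3 higher in BT483. Of all 21990 genes tested, 70.7% were called, 35.1% lower and 35.6% higher in BT483, so the count of calls was near the background while its direction was uneven. The median log2 difference of the members was -0.89, also with LPIN2 at its bound. Over expressed genes it was -0.15, and the distance between these medians was -0.74 log2. For medians of fitted values, here and below, expressed genes are those at an average of at least 1 log2 CPM in the edgeR fit. That rule takes in LPIN2 and so is not quite that of the 13646. With library totals in place of TMM scaling the expressed genes moved to -0.02, a shift of over 0.1, and the members' distance from them was again -0.74. In bulk RNA, fewer expressing cells and less RNA per cell cannot be told apart.

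Among the sterol enzymes 15 of 18 were lower in BT483 and 1, HSD17B7, was higher. ACAT2, the acetyl-CoA acetyltransferase of the cytosol, was at 17.0, 14.7, 16.4 and 11.5 CPM in the BT483 libraries with control siRNA, siRNA types 1 and 2, and tamoxifen, and at 98.6 to 121 CPM (median 109) in T47D-TamR. The groups did not overlap, and the fitted log2 difference was -2.96 (SE 0.15, adjusted p = 1.31e-08). DHCR7, which completes cholesterol from 7-dehydrocholesterol, was at 72.7, 68.7, 73.8 and 49.9 CPM in BT483 and at 182 to 278 CPM (median 239) in T47D-TamR, a log2 difference of -1.84 (SE 0.16, adjusted p = 2.01e-06). TM7SF2 (-2.04), FDFT1 (-1.84), the desaturase SC5D (-1.63), the mevalonate kinase MVK (-1.46), the isomerase EBP (-1.39), the HMG-CoA synthase HMGCS1 (-1.26) and the decarboxylase MVD (-1.13) were lower as well. Smaller differences were those of MSMO1 (-0.96), NSDHL (-0.93), LSS (-0.89), SQLE (-0.80), FDPS (-0.41) and IDI1 (-0.35). PMVK (0.09, adjusted p = 0.768) and the demethylase CYP51A1 (-0.20, adjusted p = 0.424) did not pass the test. HSD17B7, a keto-reductase of the late pathway, was at 19.5 to 23.9 CPM in BT483 and 9.99 to 14.7 CPM in T47D-TamR, and its log2 difference was 0.68 (SE 0.15, adjusted p = 0.00144). Some enzymes overlap other protein-coding genes: ACAT2 overlaps TCP1 and SOD2 and MVK overlaps MMAB (other strand), and TM7SF2 overlaps VPS51 (same strand). TCP1 was at 64.0 to 72.5 CPM in BT483 and 280 to 396 CPM in T47D-TamR. SOD2, MMAB and VPS51 were lower in BT483 as well, and the genes overlapping CYP51A1 were at 0 CPM. The part of these genes in the enzymes' counts was not tested.

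Of the 5 regulators and carriers 2, SREBF2 and STARD4, were lower in BT483. SREBF1 was at 226, 218, 259 and 216 CPM in BT483 and 200 to 289 CPM (median 240) in T47D-TamR, with overlapping groups and a log2 difference of -0.03 (SE 0.11, adjusted p = 0.820). SREBF2 was at 195, 210, 216 and 169 CPM in BT483 against 253 to 331 CPM (median 325), a difference of -0.61 (SE 0.12, adjusted p = 0.000882). INSIG1, itself an SREBP target, overlapped between lines (57.9 to 73.6 and 51.1 to 79.6 CPM) at a difference of -0.03 (adjusted p = 0.840). STARD4 was at 3.96, 2.59, 5.50 and 1.44 CPM in BT483 and 21.7 to 39.1 CPM (median 29.7) in T47D-TamR, the largest difference in that direction among the 37 members at -3.46 (SE 0.24, adjusted p = 4.56e-07). Its paralog STARD5 did not pass the test (-0.27, adjusted p = 0.388).

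Of the fatty acid genes 9 of 14 were lower and 2 higher in BT483. SCD was at 515, 507, 517 and 419 CPM in BT483 and 1543 to 1881 CPM (median 1741) in T47D-TamR, a log2 difference of -1.84 (SE 0.12, adjusted p = 1.27e-07). FASN, by contrast, was at 1439, 1560, 1489 and 1106 CPM against 1127 to 1831 CPM (median 1659), with overlapping groups and a difference of -0.06 (SE 0.15, adjusted p = 0.732). The delta-5 desaturase FADS1 (-1.71) and the delta-6 desaturase FADS2 (-1.25, adjusted p = 0.0270) were both lower in BT483, as were the acetyl-CoA synthetase ACSS2 and the phosphatidate phosphatase LPIN1 (both -1.15), THRSP (-0.98), ELOVL5 (-0.81), the acetyl-CoA carboxylase ACACA (-0.76) and ACLY (-0.58). ELOVL6 (-0.30, adjusted p = 0.109) and ACSL3 (0.29, adjusted p = 0.0653) did not pass. The call for FADS2 was lost without NLK siRNA type 1 or type 2 of BT483 (adjusted p = 0.0845 and 0.116) or of T47D-TamR (0.0738 and 0.103). THRSP lost its call without the tamoxifen library of BT483 (-0.60) or of T47D-TamR (-0.62) and with length and GC adjustment (-0.40).

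The opposite pattern was that of ME1 and LPIN2. ME1, which makes NADPH for lipid synthesis, was at 14, 13.4, 15.8 and 12.9 CPM in BT483 and 0.334 to 1.16 CPM (median 0.569) in T47D-TamR, a log2 difference of 4.02 (SE 0.22, adjusted p = 3.08e-08). LPIN2, a paralog of LPIN1, was at 27.5, 32.2, 27 and 35.8 CPM in BT483 and had 0 counts in all 7 T47D-TamR libraries. Set against a floor of 3 counts per library it was at least 212-fold higher in BT483, which covers counting error only. Over all 11 libraries the BT483 range lay wholly below that of T47D-TamR for 24 of the 35 expressed members, against 36.6% of expressed genes, and wholly above it for 2, HSD17B7 and ME1, against 28.1%; LPIN2, outside the 35, was also above. On the authors' normalized values limma called 21 members lower and 5 higher, without IDI1, FDPS, SQLE, SREBF2 and ACLY. IDI1 lost its call under 8 alternatives in all, at -0.35 to -0.035, FDPS without either tamoxifen library (-0.30 and -0.31), and ACSL3 gained one under 6, at 0.33 to 0.60.

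**Figure D2:**
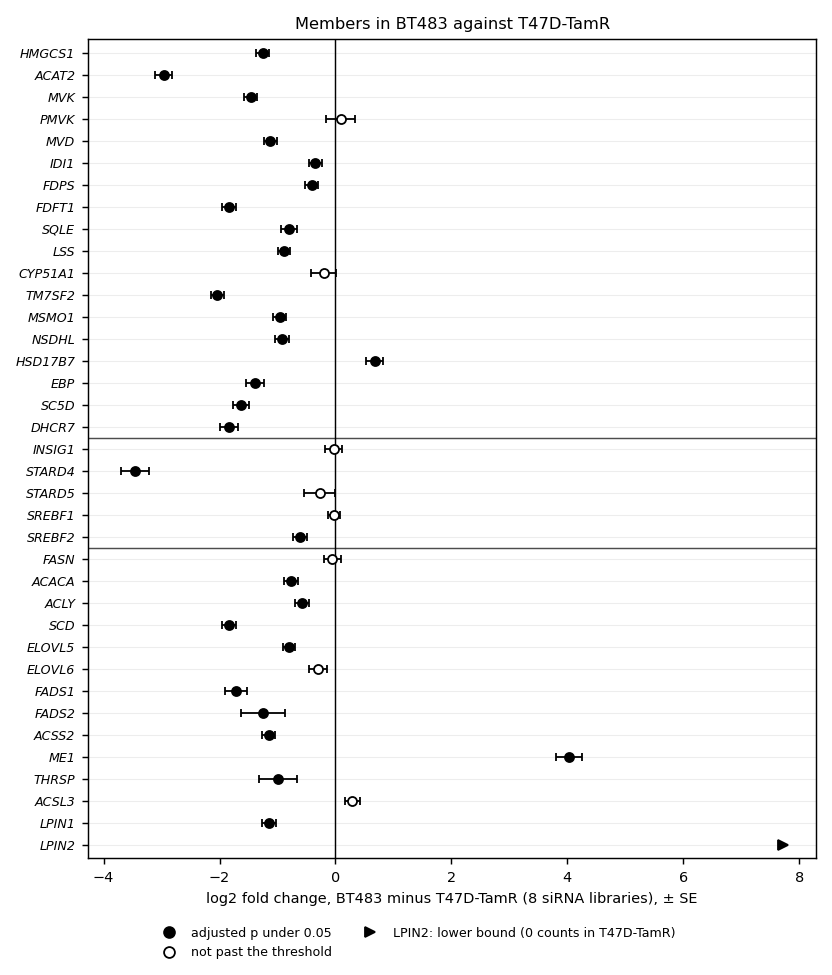
Fitted log2 difference of each member between BT483 and T47D-TamR over the 8 siRNA libraries, with bars of 1 SE, filled symbols for adjusted p under 0.05, and an arrow for LPIN2 at its lower bound of 7.73. Most sterol enzymes lie to the left of 0, SREBF1, INSIG1 and FASN lie at 0, and ME1, HSD17B7 and LPIN2 lie to the right.

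With tamoxifen FADS2 was the only member called under the main settings. It was called in the difference between lines, which was planned, and within BT483, a comparison that was not planned. Over the 3 matched pairs (1 in BT483, 2 in T47D-TamR) no member passed the test, against 0.0416% of all 24023 genes tested, and DESeq2 and limma called none either. At an unadjusted p under 0.05 there were 4 members (10.8%), against 6.62% of genes: TM7SF2 (0.32), ACSS2 (0.32), LPIN1 (0.29) and MVD (0.28). The coefficient was positive for 24 of 37 members (64.9%, against 52.7% of genes), and their median was 0.072 log2, against 0.031 for expressed genes. The members' median was 0.046 with library totals, 0.19 without the BT483 tamoxifen library, -0.0099 without the T47D-TamR control siRNA with tamoxifen, 0.038 without BT483 siRNA type 1 and 0.043 without the T47D-TamR control siRNA, and 0.16 with no block.

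In BT483 FADS2 was called lower with tamoxifen, and FADS1 and STARD4 had lower values without passing the test. FADS2, which starts the synthesis of long polyunsaturated fatty acids, was at 16.6 CPM with control siRNA, 14.4 and 10.5 CPM with the NLK siRNAs and 5.08 CPM with tamoxifen (134 counts against 294 in the control). In T47D-TamR it was at 22.3 CPM with control siRNA and 31.7 CPM with tamoxifen, and at 28.2 CPM in DMSO and 31.4 CPM with tamoxifen. So the tamoxifen library was the lowest of BT483, and the higher of its pair in both arms of T47D-TamR. FADS2 fell by 1.73 log2 in BT483 (SE 0.31, adjusted p = 0.00829), and it was the only member called of 37, against 1.49% of all genes. The ratio of the pair was 0.305 (95% interval 0.247 to 0.376, exact binomial, counting error only), and the ratios in T47D-TamR were 1.42 (1.27 to 1.58) with siRNA and 1.11 (1.00 to 1.23) without. This fit assumes that the lone BT483 library varies like the others.

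The difference between lines was also tested directly. For FADS2 it was -2.10 log2 (SE 0.37, adjusted p = 0.0134), the only call among 36 members, against 0.691% of genes; LPIN2 could not be fitted there, having no counts in T47D-TamR. This call was lost with limma on the normalized table (-1.57, adjusted p = 0.250) and without the T47D-TamR control siRNA (-1.85, adjusted p = 0.361), its tamoxifen partner (-1.91, 0.289), DMSO (-2.30, 0.137) or DMSO with tamoxifen (-2.23, 0.191), while the sign held in every alternative run. The fall within BT483 was likewise not called with limma (-1.23, adjusted p = 0.161) or without the T47D-TamR library of DMSO with tamoxifen (-1.70, adjusted p = 0.0538). FADS2 (chromosome 11, 61792980 to 61867354 in GENCODE 29, plus strand) overlaps FEN1 on the same strand and FADS1 on the other, and how the counting treated strand was not given in the sources used here. FEN1, a DNA replication nuclease, was at 44.0 CPM in the BT483 control and 10.9 CPM with tamoxifen, and at 121 to 155 CPM in T47D-TamR. The part of FEN1 reads in the FADS2 counts was not tested.

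Other members were lower with tamoxifen in BT483 without passing the test. In all, 6 members (16.2%) had an unadjusted p under 0.05, against 8.67% of genes, and the coefficient was negative for 25 of 37 (67.6%), against 51.0% of genes. FADS1 was at 17.4 CPM in the control, 14.5 and 9.44 CPM with NLK siRNA types 1 and 2, and 8.68 CPM with tamoxifen (log2 difference -1.02, SE 0.30, adjusted p = 0.167). The type 2 library thus lay close to the tamoxifen library. STARD4 was at 3.96 CPM in the control and 1.44 CPM with tamoxifen, 70 and 38 counts (-1.48, SE 0.48, adjusted p = 0.281). ACAT2 (-0.59, adjusted p = 0.402), DHCR7 (-0.57, adjusted p = 0.411) and ELOVL5 (-0.54, adjusted p = 0.393) were the others. With no filter on low counts FADS1 (adjusted p = 0.0376) and STARD4 (adjusted p = 0.00882) were called as well. Past 0.5 log2 in the simple ratio of the pair, 6 of 35 expressed members were lower (ACAT2, DHCR7, STARD4, ELOVL5, FADS1, FADS2), against 11.3% of expressed genes, and 2 were higher (PMVK 0.58 and STARD5 0.59), against 8.69%. TFF1, an estrogen-responsive gene, was at 680 CPM in the BT483 control and 65.5 CPM with tamoxifen, and at 0 to 0.16 CPM in T47D-TamR. Luminal marker sums in BT483 were 14338 and 14556 CPM, fibroblast marker sums 14.4 and 12.1 CPM, and the mitochondrial share was 10.2% and 11.5%. The part of these in the results was not tested.

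In T47D-TamR the sterol enzymes stood slightly higher with tamoxifen. No member of 36 was called, against 0.221% of genes, with DESeq2 and limma calling none either, and 10 members (27.8%) had an unadjusted p under 0.05, against 6.01% of genes. The coefficient was positive for 28 of 36 (77.8%, against 53.8% of genes), and for 15 of the 18 sterol enzymes, at a median of 0.23 log2 for the members and 0.071 for expressed genes. With library totals in place of TMM 25 were positive and the median was 0.18. The median was 0.13 with length and GC adjustment and 0.12 without the T47D-TamR control siRNA, and 0.29 at most, without DMSO. DHCR7 was at 182 CPM with control siRNA and 262 CPM with tamoxifen, and at 217 CPM in DMSO and 236 CPM with tamoxifen (0.36, SE 0.15, adjusted p = 0.749). INSIG1 was at 56.9 and 79.6 CPM and at 51.6 and 63.5 CPM in the same pairs (0.43, SE 0.17, adjusted p = 0.622). HSD17B7 (0.50), TM7SF2 (0.40), SQLE (0.37), ACSS2 (0.36), MVK (0.33), FDPS (0.33) and SREBF2 (0.33) were higher, and ACSL3 (-0.40) was lower, all at adjusted p of at least 0.565. Mitochondrial shares were 7.4% and 6.47% in the siRNA pair and 7.79% and 8.42% in the other. Luminal marker sums were 4978 and 5787 CPM and 6643 and 7325 CPM, and fibroblast marker sums 53.8 and 61.5 CPM and 62.6 and 65.1 CPM. Of 7 fibroblast markers tested 6 had a negative tamoxifen coefficient, with a median of -2.44 log2. The part of these in the results was not tested.

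Tested as a difference, 28 of 36 members had a more negative tamoxifen coefficient in BT483 than in T47D-TamR (77.8%, against 50.6% of genes), and 11 (30.6%) had an unadjusted p under 0.05, against 8.70%. Beside FADS2 the differences at adjusted p above 0.05 were those of STARD4 (-1.24), FADS1 (-1.07), DHCR7 (-0.93, adjusted p = 0.198), ACAT2 (-0.81), INSIG1 (-0.80), SQLE (-0.72), FASN (-0.67) and SCD (-0.56), with SC5D at 0.56. The median was -0.35 log2 for the members and -0.050 for expressed genes. Without single libraries the members' median ran from -0.44 to -0.27.

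By the sign of the 3 pairs, 13 of 35 expressed members (37.1%) were lower with tamoxifen in BT483 and higher in both T47D-TamR pairs, against 20.7% of expressed genes. These were ACAT2, FDPS, FDFT1, SQLE, NSDHL, HSD17B7, DHCR7, INSIG1, SREBF2, FASN, ACLY, SCD and FADS2. Only SC5D and ACSL3 did the opposite, 2 of 35 against 16.8%. In all 3 pairs 7 were higher (MVK, MVD, LSS, TM7SF2, MSMO1, ACSS2 and LPIN1), against 19.9%, and 4 were lower (IDI1, STARD4, ELOVL5 and ME1), against 14.3%; the BT483 difference of MVK and the vehicle difference of IDI1 were close to 0. The sizes were small for abundant members: FASN was at 1439 and 1106 CPM in BT483, at 1127 and 1517 CPM in the T47D-TamR siRNA pair, and at 1659 and 1685 CPM in the pair without siRNA. SCD was at 515 and 419 CPM, 1543 and 1881 CPM, and 1619 and 1746 CPM in the same pairs.

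**Figure D3:**
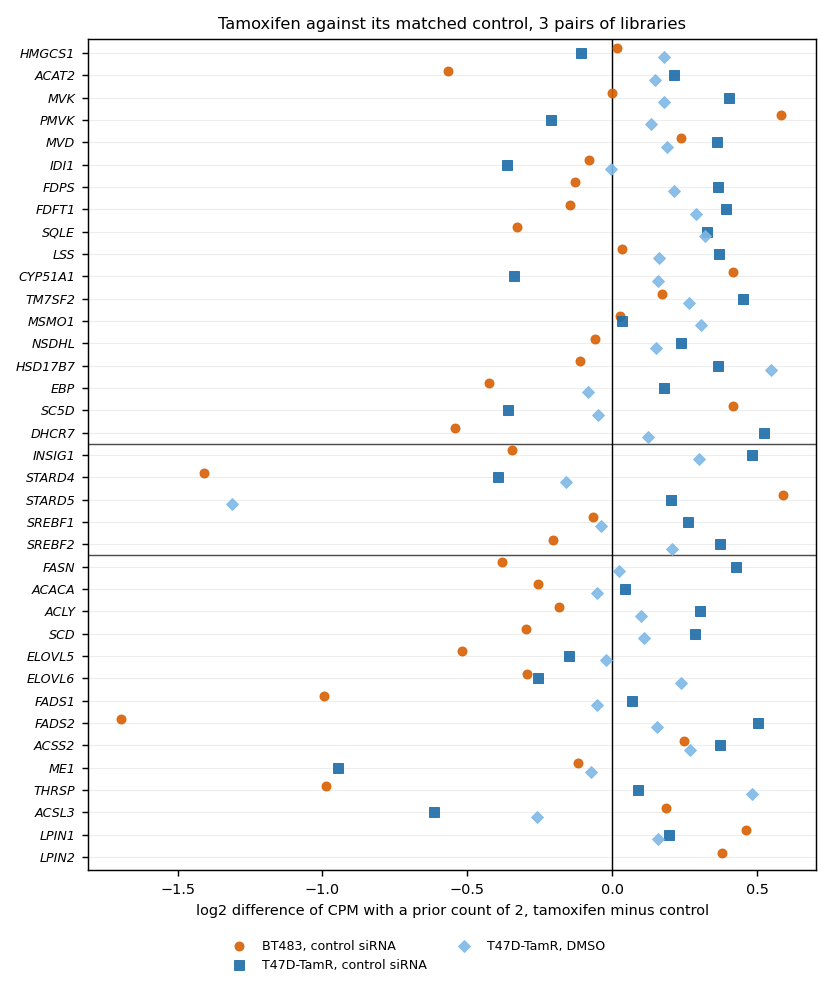
Log2 difference between tamoxifen and its matched control for each member, with 1 symbol for each of the 3 pairs (BT483 with control siRNA, T47D-TamR with control siRNA, and T47D-TamR in vehicle). FADS2 lies at -1.70 for BT483, with the T47D-TamR pairs at 0.50 and 0.15, and many sterol enzymes have the BT483 symbol to the left of both T47D-TamR symbols.

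NLK knockdown left these genes, like most expressed genes, near their control levels. Over the 4 knockdown libraries no member was called, against 0.00416% of genes, which is NLK alone, and DESeq2 and limma called none. At an unadjusted p under 0.05 there were 4 members (10.8%), against 5.54% of genes. The decarboxylating dehydrogenase NSDHL was at 22.0, 25.7 and 24.7 CPM in BT483 with control siRNA, type 1 and type 2, and at 36.4, 48.2 and 47 CPM in T47D-TamR (log2 fold change 0.31, SE 0.13, adjusted p = 0.880). The methyl sterol oxidase MSMO1 was at 52.5, 58.6 and 73.3 CPM and at 105, 109 and 128 CPM (0.31, SE 0.13, adjusted p = 0.880). Both were above their control in all 4 libraries. SC5D was below it in all 4, at 39.3, 37.4 and 35.5 CPM and at 156, 110 and 111 CPM (-0.32, SE 0.13, adjusted p = 0.880). THRSP was at 1.59, 0.843 and 0.706 CPM and at 2.61, 1.19 and 1.06 CPM (-0.97, SE 0.34, adjusted p = 0.880), on 28, 13 and 19 counts in BT483. Fibroblast marker sums were 14.4, 13.6 and 14.3 CPM in BT483 and 53.8, 77.3 and 74.3 CPM in T47D-TamR. All 7 fibroblast markers tested had a positive knockdown coefficient, with a median of 0.71 log2 and none called. COL1A2, 1 of them, was at 2.21, 6.47 and 4.08 CPM in T47D-TamR with control siRNA and siRNA types 1 and 2, and at 0 to 0.366 CPM in the other 4 libraries of that line. The part of these markers was not tested.

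The coefficient was positive for 28 of 37 members (75.7%, against 53.4% of genes), for 16 of 18 sterol enzymes and for 7 of 14 fatty acid genes. Their median was 0.082 log2, and that of expressed genes was 0.029. With limma it was 0.021 and without the block 0.017, against 0.012 and 0.026 for expressed genes. The members' median was 0.050 with library totals, 0.14 without the BT483 control siRNA, 0.046 without BT483 siRNA type 1, 0.050 without BT483 with tamoxifen and 0.045 without the T47D-TamR control siRNA. Under the other settings the number positive was 19 to 28, the lowest being without the block for line and arm. In all 4 knockdown libraries 10 of 35 expressed members were above their control (MVK, MVD, TM7SF2, MSMO1, NSDHL, HSD17B7, SREBF2, FASN, ACSS2 and LPIN1), against 14.3% of expressed genes, and 2 were below it (SC5D and FADS1), against 12.4%. All 4 libraries were compared with only 1 control in each line, so these counts share their controls. FASN was the widest of these in T47D-TamR, at 1127 CPM with control siRNA and 1283 and 1803 CPM with types 1 and 2, where the DMSO library stood at 1659 CPM.

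Taken by line, no member was called in BT483 or in T47D-TamR, where 0.00416% of genes were called in each, and DESeq2 and limma called no member in either. In BT483 FADS1 (-0.57) and THRSP (-1.06) had an unadjusted p under 0.05, 2 of 37 against 3.39% of genes. In T47D-TamR these were SC5D (-0.40) and THRSP (-1.07), 2 of 36 against 5.71%. The difference between lines was called for no gene (0.00%), and for no member at an unadjusted p under 0.05 against 3.06% of genes. The lowest p-values were those of FADS1 (-0.52), DHCR7 (-0.37) and FADS2 (-0.47), and DESeq2 and limma called none.

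**Figure D4:**
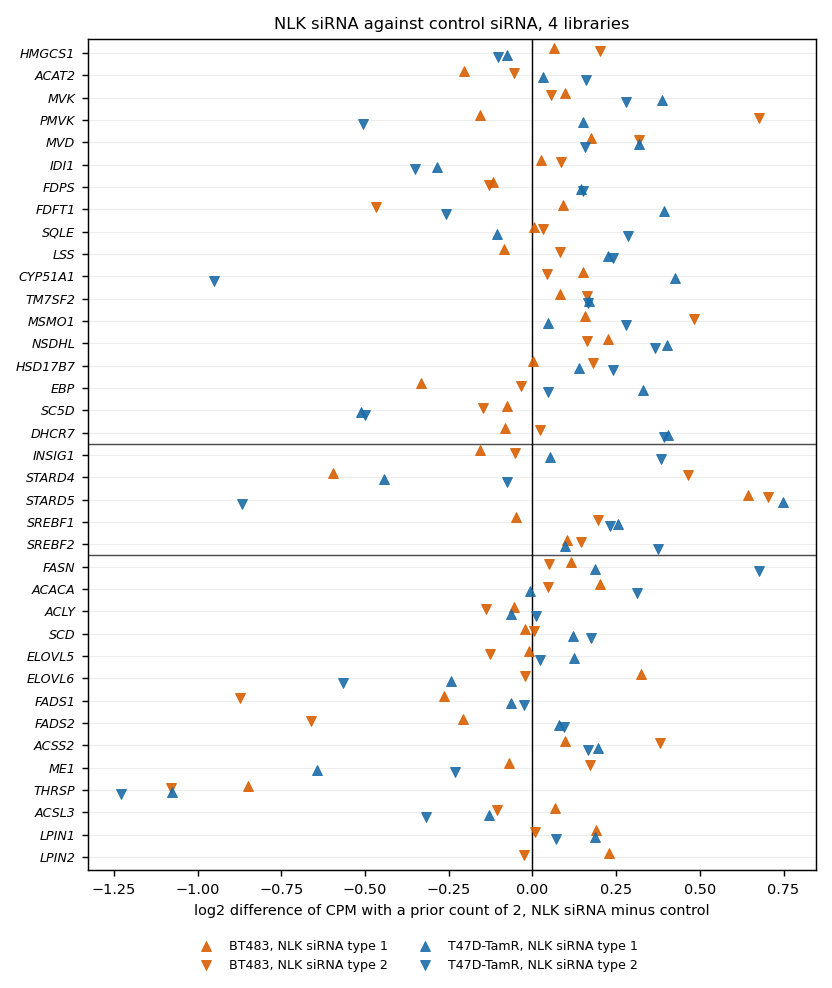
Log2 difference between each of the 4 NLK siRNA libraries and the control siRNA library of its line, for each member. Of 146 member values 128 lie within 0.5 of 0. Past 0.5 upward and downward are 1 and 2 of 37 members (BT483 type 1) and 2 and 3 (BT483 type 2). Of expressed genes these are 451 and 626 of 13603, and 1185 and 1158 of 13616. In T47D-TamR they are 1 and 3 of 36 members (type 1) and 1 and 5 (type 2). Expressed genes there are 508 and 1213, and 1149 and 1972, of 13646. SC5D lies below 0 in all 4 libraries. FDFT1 differs between siRNA types in both lines, and CYP51A1 mostly in T47D-TamR.

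No member was called between the siRNA types, and FDFT1 and CYP51A1 had the lowest p-values. Type 2 against type 1, with the lines as replicates, gave no call among 37 members, against 0.470% of genes. An unadjusted p under 0.05 was found for 2 members (5.41%), a smaller share than the 9.12% of all genes. FDFT1, which commits farnesyl diphosphate to sterols, was at 104 CPM with type 1 and 70.6 CPM with type 2 in BT483 (control 97.8), and at 373 and 238 CPM in T47D-TamR (control 284). In both lines type 1 was above the control and type 2 below it. The log2 difference was -0.61 (SE 0.15, adjusted p = 0.120). It was called with DESeq2 (adjusted p = 0.0264), with no filter on low counts (0.0180), with length and GC adjustment (0.0305), without the BT483 control siRNA (0.0489) and without the BT483 tamoxifen library (0.0201). Over its 17 alternatives the value stayed between -0.63 and -0.56, with adjusted p of 0.0180 to 0.658. CYP51A1 was at 10.2 and 9.52 CPM in BT483 and at 18.0 and 6.89 CPM in the other line (-0.76, SE 0.27, adjusted p = 0.345), so most of its difference was in 1 line. CYP51A1 has 3 named pseudogenes in GENCODE 29, and reads shared with them could be split.

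Compared directly over the 8 siRNA libraries, no member was called between tamoxifen and knockdown, against 0.0364% of genes, and DESeq2 and limma called none either. ELOVL5 (-0.32) and SC5D (0.36) had an unadjusted p under 0.05, 2 of 37 against 5.02% of genes. Here the tamoxifen libraries were 2 and the knockdown libraries 4. The fit held the difference to be the same in both lines, so it cannot show differences that run in opposite directions. FADS2 was at 5.08 CPM with tamoxifen against 14.4 and 10.5 CPM with the NLK siRNAs in BT483. In T47D-TamR it was at 31.7 CPM against 23.6 and 23.8 CPM, and its fitted difference was -0.23.

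VX-702 was compared with DMSO in 1 library each in T47D-TamR, with no replicate, so a difference past 0.5 log2 was counted and not tested. None of the 35 expressed members was higher by this measure, against 3.84% of expressed genes, and 2 were lower, STARD5 and ME1, against 7.59%. STARD5 was at 24.8 CPM in DMSO and 7.93 CPM with VX-702, a ratio of 0.320 (95% interval 0.271 to 0.377, counting error only). Every other T47D-TamR library held 3.19 to 9.96 CPM, so this value rests on the DMSO library. ME1 had 14 counts in DMSO and 8 with VX-702, a ratio of 0.587 with an interval of 0.213 to 1.5 that includes 1. The next members were SC5D (-0.49), STARD4 (-0.46), IDI1 (-0.39) and ACSL3 (-0.37) on the lower side, and DHCR7 (0.36), ACSS2 (0.31), FDFT1 (0.26) and MVK (0.26) on the higher. SC5D was at 135 CPM in DMSO and 95.6 CPM with VX-702, the lowest of the 7 T47D-TamR libraries, and DHCR7 at 217 and 278 CPM, the highest of them. The members' median was 0.085 log2, and that of expressed genes 0.049; on log2(TPM + 1) values the members' median was -0.032.

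Control siRNA against DMSO in T47D-TamR compares transfection and, because the length of drug treatment was not stated, possibly time in culture, again with 1 library each. Past 0.5 log2, 3 of 35 were higher with siRNA (PMVK 0.59, CYP51A1 0.65 and ME1 0.93), against 5.01% of expressed genes, and 2 were lower (STARD5 -2.06 and FASN -0.56), against 3.81%. FASN was at 1127 CPM with control siRNA and 1659 CPM in DMSO, a ratio of 0.680 (0.669 to 0.690). In the pair with tamoxifen it was at 1517 and 1685 CPM, a ratio of 0.901 (0.888 to 0.913). In both pairs 16 members were higher with siRNA, against 28.6% of expressed genes, and 5 were lower (STARD5, SREBF1, SREBF2, FASN and ACSS2), against 32.0%. SREBF1 was at 200 and 263 CPM and at 240 and 256 CPM, log2 differences of -0.39 and -0.092. With tamoxifen in both libraries only STARD5 (-0.54) passed 0.5.

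**Figure D5:**
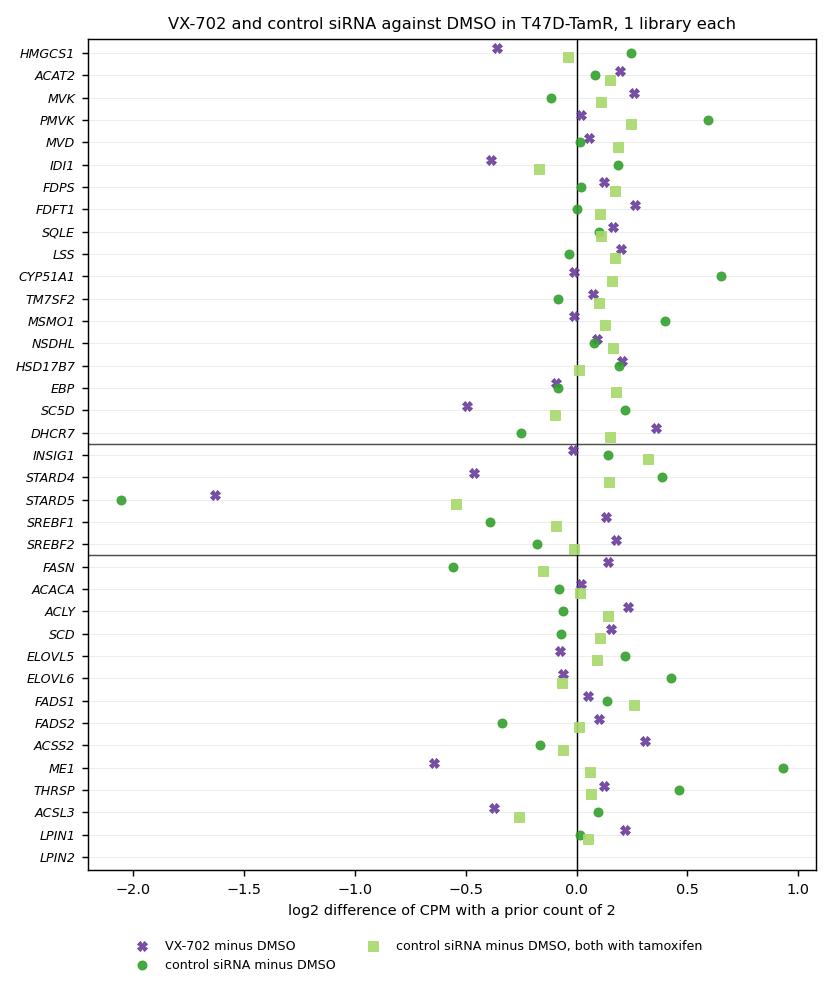
Log2 differences between single T47D-TamR libraries for each member: VX-702 against DMSO, control siRNA against DMSO, and the same siRNA comparison with tamoxifen in both libraries. STARD5 is far to the left in both comparisons with the DMSO library (-1.63 and -2.06) and at -0.54 in the pair that does not use it.

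Other lipid genes around the pathway also differed between lines. Against 35.1% of all genes lower in BT483 and 35.6% higher, 10 of 15 tested genes of sterol transport and esterification were lower in BT483 and 1 higher, as were 8 and 2 of 14 in the isoprenoid branch, 14 and 5 of 20 other lipogenic genes, and 8 and 4 of 15 in glycerolipid synthesis. The lysosomal sterol proteins NPC2 (-2.79), LIPA (-1.77) and NPC1 (-1.25), the cholesterol acyltransferase SOAT1 (-2.15) and the lipid droplet coat protein PLIN2 (-3.99) were lower in BT483. The machinery that processes SREBP was mixed, with 3 of 11 lower and 2 higher, and fatty acid oxidation had 5 lower and 5 higher of 17. The list of sterol efflux genes and targets of LXR, which responds to oxysterols, had 5 of 10 lower and 3 higher. It also holds the LXR genes themselves, NR1H2 and NR1H3. APOE was at 1.49 to 2.27 CPM in BT483 and 177 to 268 CPM in T47D-TamR (-6.96, adjusted p = 1.59e-10). SCD5, a second stearoyl-CoA desaturase, was at 28.6 to 36.9 CPM in BT483 and 0.16 to 0.422 CPM in T47D-TamR (7.23, adjusted p = 3.58e-10), the reverse of SCD.

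With tamoxifen in BT483, 2 genes of these lists fell. ELOVL2, an elongase of polyunsaturated fatty acids that acts downstream of FADS1 and FADS2, was at 93.3 CPM in the control, 72.1 and 118 CPM with the NLK siRNAs and 18.4 CPM with tamoxifen (-2.37, SE 0.35, adjusted p = 0.00328). It was at 0 to 0.153 CPM in T47D-TamR, where no effect could be read. TMEM97, the sterol-binding sigma-2 receptor, was at 56.3 CPM in the BT483 control and 28.5 CPM with tamoxifen (-1.01, SE 0.21, adjusted p = 0.0271), and it stood at 74.6 to 90.7 CPM in T47D-TamR. Its difference between lines was -1.24 (SE 0.26, adjusted p = 0.0409). INSIG2, the second INSIG protein, was at 19.0 and 37.2 CPM in the BT483 pair (0.95, adjusted p = 0.130). Under knockdown no gene of these lists passed the test. Among the lipid lists that of LXR and sterol efflux had the highest median, 0.35 log2 with 9 of 10 positive, against 0.024 over all genes tested. ABCA1, the cholesterol efflux pump, was at 2.72, 3.76 and 9.81 CPM in BT483 and 6.78, 5.95 and 7.19 CPM in T47D-TamR. ABCG4 (0.0566, 0.259 and 0 CPM) was near or under the level of 3 counts in these BT483 libraries. PLTP was near it with control siRNA and type 1 (0.283 and 0.259 CPM). With type 2 PLTP was at 0.892 CPM, where 3 counts corresponded to 0.117 CPM. LIPA differed between siRNA types (1.27, SE 0.15, adjusted p = 0.00500), at 19.6 and 47 CPM in BT483 (control 34.4) and 57.3 and 138 CPM in T47D-TamR (control 139) with types 1 and 2.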

How the data were processed

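Poly(A) RNA from 11 libraries was sequenced as stranded paired-end libraries, per the labels' protocols. The deposited files hold whole-number counts per gene symbol and log2(TPM + 1) values made by the authors, both per library and as 1 table brought to nearly the same distribution over libraries. The submitters' processing notes name the GRCh38 build, while the aligner, annotation and counting settings were not given in the sources used here. Counts were tested with edgeR 4.0.16 (R 4.3.3; filterByExpr, TMM, robust quasi-likelihood test, Benjamini-Hochberg adjustment over all genes, threshold 0.05) in 11 comparisons. Single pairs were read with exact 95% binomial intervals (scipy 1.17.1) and a threshold of 0.5 log2, which cover counting error only. Figures used matplotlib 3.10.9. Alternatives were DESeq2 1.42.0, limma 3.58.1 on the normalized log2 table, filters on low counts, library totals, a length and GC offset (mgcv 1.9.3), no block, and each library left out. The tests were run on simulated counts first. TPM for levels was computed from the deposited log2 values. Overlaps and neighbours come from GENCODE 29, sequences from RefSeq. The named genes were the members past the threshold, or else the 4 highest and 4 lowest, with both paralogs of a pair. The members and lists were chosen with earlier results of these data known. 3 counts corresponded to 0.111 to 0.205 CPM. 5 members have pseudogenes of the same name (FDPS, CYP51A1, HSD17B7, SCD, FADS2).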

Additional observations from a re-analysis of the deposited data

Results flagged for a closer look

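The tamoxifen effect on FADS2 differed between the lines by -2.10 log2 (BT483 minus T47D-TamR), tested with an interaction term in edgeR (adjusted p = 0.0134), the only member whose effect differed between lines at that threshold. FADS2 was at 16.6 and 5.08 CPM in BT483, at 22.3 and 31.7 CPM in the T47D-TamR siRNA pair and at 28.2 and 31.4 CPM in the pair without siRNA, so the BT483 side rests on 1 tamoxifen library. The overlapping gene FEN1 was at 44.0 and 10.9 CPM in the BT483 pair, and its part in the FADS2 counts was not tested. No group had more than 1 library, so no library could be screened for standing apart from its own group.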

How the results depend on the processing

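The calls between lines held for 27 to 29 members without single libraries, with a median of -0.96 to -0.70 log2 (reported -0.89). That median was -0.58 with limma on the normalized table. Leaving out a library gave 0 to 1 calls for the tamoxifen difference between lines (0 with limma), 0 to 1 for siRNA type 2 against type 1 (1 with DESeq2, with no filter and with length and GC adjustment), and a median of -0.12 to 0.12 for tamoxifen minus knockdown. The comparisons within a line were put through alternatives chosen after seeing the data: tamoxifen in BT483 gave 0 to 1 calls without single libraries, 3 with no filter and 0 with limma. For VX-702, 4 members passed 0.5 with library totals and 9 passed 0.3, and the median was -0.032 with log2(TPM + 1). For control siRNA against DMSO, 11 passed 0.3, 1 passed 0.5 in the pair with tamoxifen, and the median was -0.00387 with log2(TPM + 1). Signs turned for single members that had not been called, given here with the range of values over leaving out each library. Under knockdown these were FADS1, 0.027 without the BT483 control siRNA (-0.43 to 0.027), FADS2, 0.36 without that library and 0.041 without the T47D-TamR tamoxifen siRNA library (-0.35 to 0.36), and ACSL3, 0.045 with length and GC adjustment. Under tamoxifen it was FADS2, 0.054 with no block, 0.083 without the BT483 control siRNA and 0.26 without the BT483 tamoxifen library (-0.70 to 0.26). For tamoxifen minus knockdown it was LPIN2 (-0.029 to 0.40, lowest without the BT483 tamoxifen library). For the knockdown difference between lines they were DHCR7 (-0.48 to 0.029) and ME1 (-0.38 to 0.54), turned without the T47D-TamR control siRNA, and PMVK (-0.14 to 0.77), turned without BT483 siRNA type 2. For knockdown in BT483 they were FDFT1 (-0.48 to 0.084) and PMVK (-0.16 to 0.67), turned without type 2. For knockdown in T47D-TamR, ME1 (-0.50 to 0.44), ELOVL6 (-0.42 to 0.040), DHCR7 (-0.061 to 0.44) and FASN (-0.012 to 0.61) turned without its control siRNA, and STARD5 (-1.42 to 0.34) without siRNA type 2, the tamoxifen siRNA library (0.20), DMSO (0.20) or DMSO with tamoxifen (0.16). For tamoxifen in T47D-TamR they were STARD5, 0.27 and 0.23 without DMSO and DMSO with tamoxifen (-1.35 to 0.27), and STARD4, 0.20 with length and GC adjustment. The cause was not tested. Of the summary values 339 were labelled the same, 21 moved and 2 turned. In the fits a median was labelled the same within the median SE of the members, even where its sign changed. Such sign changes, each without a single library, were those of tamoxifen (-0.0099), knockdown in BT483 (-0.0025) and in T47D-TamR (-0.013), and the knockdown difference between lines (0.025). The median of siRNA type 2 against type 1, close to 0, also changed sign under several settings. No paired analysis was possible because replicate numbers, 1 in every group, pair no samples; the block of the tamoxifen and knockdown tests is for line and arm. ME1 and THRSP, at 8 to 74 counts in the T47D-TamR libraries, had the widest counting error.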

Other observations

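LPIN2 had 0 counts in the 7 T47D-TamR libraries. In GENCODE 29 LPIN2 lies at 2916994 to 3013315 on the minus strand. Its nearest neighbours, EMILIN2 (0.0744 to 0.170 CPM in BT483, 0 counts in T47D-TamR) and MYOM1 (0.152 to 0.372 CPM and 0 to 0.0425 CPM), were at very low levels in both lines. Beyond them, SMCHD1 on one side was at 31.6 to 45.1 CPM in BT483 and 39.6 to 78.9 CPM in T47D-TamR, and MYL12A on the other was at 99.6 to 165 CPM and 122 to 206 CPM. LPIN1 was at 19.5 to 26.9 CPM in BT483 and 43.4 to 50.5 CPM in T47D-TamR.

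Fatty acid oxidation genes are the catabolic counterpart of the synthesis genes. The fitted difference of tamoxifen minus NLK knockdown was positive for 17 of 17 of them tested. That fit pooled both lines over the 8 siRNA libraries, so the sign need not hold in each line. The median of these genes was 0.15 log2, against -0.019 over all genes tested, and none was called. The share of all genes higher in this comparison was not computed, and 16 of the 37 members were. This was the most uneven of the lipid lists in this comparison. ACADM, the medium-chain acyl-CoA dehydrogenase, was at 28.0, 22.6, 19.9 and 28.1 CPM in BT483 with control siRNA, siRNA types 1 and 2, and tamoxifen. In T47D-TamR it was at 51.0, 35.0, 23.7 and 28.1 CPM in the same order, so there the tamoxifen library lay between the knockdown libraries, and all 3 lay below the control. In that line ETFA was at 281 and 225 CPM with siRNA types 1 and 2 and 224 CPM with tamoxifen. HADH was at 87.7 and 69.9 CPM with the siRNAs and 89.9 CPM with tamoxifen. In glycerolipid synthesis 14 of 16 genes had a more negative tamoxifen coefficient in BT483 than in T47D-TamR, against 50.6% of genes. Their median was -0.33 log2, against -0.010 over all genes tested, with none called.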
